A study of Mus musculus with 8 samples.

Results

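Mitochondrial ribosomal protein genes are the nuclear genes for the proteins of the ribosome that works inside mitochondria. Their transcripts were followed in hearts of 8 C57BL/6J mice, 4 with a myocardial infarct (MI), in which heart muscle dies for want of blood, and 4 after a sham operation (Sham). Per the labels, mice of 12 weeks of age were used, and border-zone tissue, meaning muscle beside the infarct or its matching place in a sham heart, was taken 2 weeks after surgery. The labels name no transgene and no drug in either group. The libraries were made from poly(A) RNA and sequenced in paired reads, and the series gives 4 biological replicates per condition. Groups follow the titles and the treatment labels, which match each other. Other fields conflict with them, since MI samples have Sham in their source field, some MI descriptions name a sham infarct and 1 Sham description names an infarct. The Sham titles alone carry a remark that the data were analysed again, and what was done is not given in the sources used here; a difference in handling between the groups, if there was one, and infarction cannot be told apart.

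The gene set was defined by name, as protein-coding genes with the symbol Mrpl or Mrps followed by a number. GENCODE lists 78 such genes. Of these, 65 had a locus of their own among the 35299 loci of the deposited annotation, namely 44 Mrpl and 21 Mrps genes. A locus counted as a gene's own where no other gene matched an intron that the gene itself did not match. Exons of a neighbour without a matched intron, or with no matched intron apart from the gene's own, would not be seen in this way. The other 13 were left out because their locus also holds exons of another gene. They were Mrpl24, Mrpl38, Mrpl52, Mrpl53, Mrpl55, Mrps6, Mrps10, Mrps15, Mrps16, Mrps21, Mrps23, Mrps28 and Mrps34. All 65 loci passed the filter of a mean of at least 10 normalised reads and entered the test. A normalised read is a read divided by 1 size factor per library, as deposited.

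The mitochondrial ribosome translates the few messenger RNAs of the mitochondrial genome, which all encode subunits of the respiratory chain and of ATP synthase. Its small subunit holds the decoding site and its large subunit joins the amino acids. Its ribosomal RNAs come from the mitochondrial genome, while all of its proteins are made in the cytosol and imported. Some of these proteins belong to families that bacteria share, marked in the unified names by u or b, and others are specific to mitochondria, marked by m. Heart muscle is rich in mitochondria, and inherited defects of human MRPL3, MRPL44, MRPS14 and MRPS22 are known to cause disease that includes cardiomyopathy.

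The libraries held 165 to 190.2 M reads in the MI group and 108 to 161 M reads in the Sham group, so that 1 read was worth 0.663 to 0.873 normalised reads in MI libraries and 1.14 to 1.58 in Sham libraries. Nppa, the atrial natriuretic peptide gene that stressed ventricles express, averaged 372116 ± 80824 normalised reads in MI hearts and 17713 ± 1464 in Sham hearts (SD, n = 4 each). Postn, a matrix gene of activated fibroblasts, averaged 98308 ± 21169 in MI hearts and 5819 ± 1516 in Sham hearts. Atp2a2, which encodes the pump that returns calcium to its store after a beat, averaged 1343825 ± 253218 in MI hearts and 2594632 ± 127312 in Sham hearts. Each of these genes separated the groups in the direction known for infarcted hearts. MI replicate 2 stood apart from the other MI libraries: its score on the first principal component of all loci tested, which carried 61.9% of the variance, was 34.8, against 62.4 to 63.2 in the other MI libraries and -65.2 to -42.6 in Sham libraries.

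Of the 65 mitochondrial ribosomal protein genes, 54 were lower in MI hearts, none was higher and 11 were not called, where a call is a Benjamini-Hochberg adjusted p under 0.05 in limma over all 19186 loci tested. Over all loci 20.1% were called lower and 20.8% higher, and over loci of 1 protein-coding gene 21.4% and 24.9%. The median log2 difference of the 65 genes, MI minus Sham, was -0.40, with quartiles of -0.48 and -0.31, while the median of all loci tested was -0.02 and that of the 13022 loci of 1 protein-coding gene was 0.00. All 65 differences were below 0, and they ran between -0.75 for Mrpl39 and -0.05 for Mrpl33. In 51 of the 65 genes every MI library lay below every Sham library, as in 3832 of the 19186 loci tested (20.0%), and 50 of these 51 were among the 54 called. Mean levels in MI hearts were 59.5% to 96.0% of those in Sham hearts, with a median of 75.5%. In bulk tissue, fewer cardiomyocytes and less of these transcripts per cell cannot be told apart. Without MI replicate 2, which stands apart, 51 genes were lower (20.2% of all loci). Leaving out 1 library gave 45 lower without MI replicate 1 (16.6% of all loci) to 60 without Sham replicate 2 (18.2% of all loci).

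Part of these counts depended on how the libraries were scaled. Scaled to its total reads, a library is measured against a total of which transcripts of the mitochondrial genome made up 23.8%, 26.1%, 24.3% and 25.4% in MI replicates 1 to 4, against 31.2%, 29.2%, 32.3% and 30.2% in Sham replicates 1 to 4. That scaling moved the median of all loci by 0.30 on the log2 scale. It called 15 of the 65 genes lower and 3 higher, with 7.8% of all loci lower and 44.4% higher, and the median of the 65 genes was then -0.10. Scaled to the total outside the mitochondrial genome, 34 were lower and none higher, with 11.2% of all loci lower and 33.2% higher, and a median of -0.21. Relative to the median of all loci the 65 genes stood at -0.39 as deposited, -0.38 with the library total and -0.38 with the total outside the mitochondrial genome, and each of the 65 lay below that median under both totals. Such scaling moves every locus of a library by the same factor, so this distance could hardly change. It is therefore no check on the fall or on the choice of scaling.

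**Figure D1:**
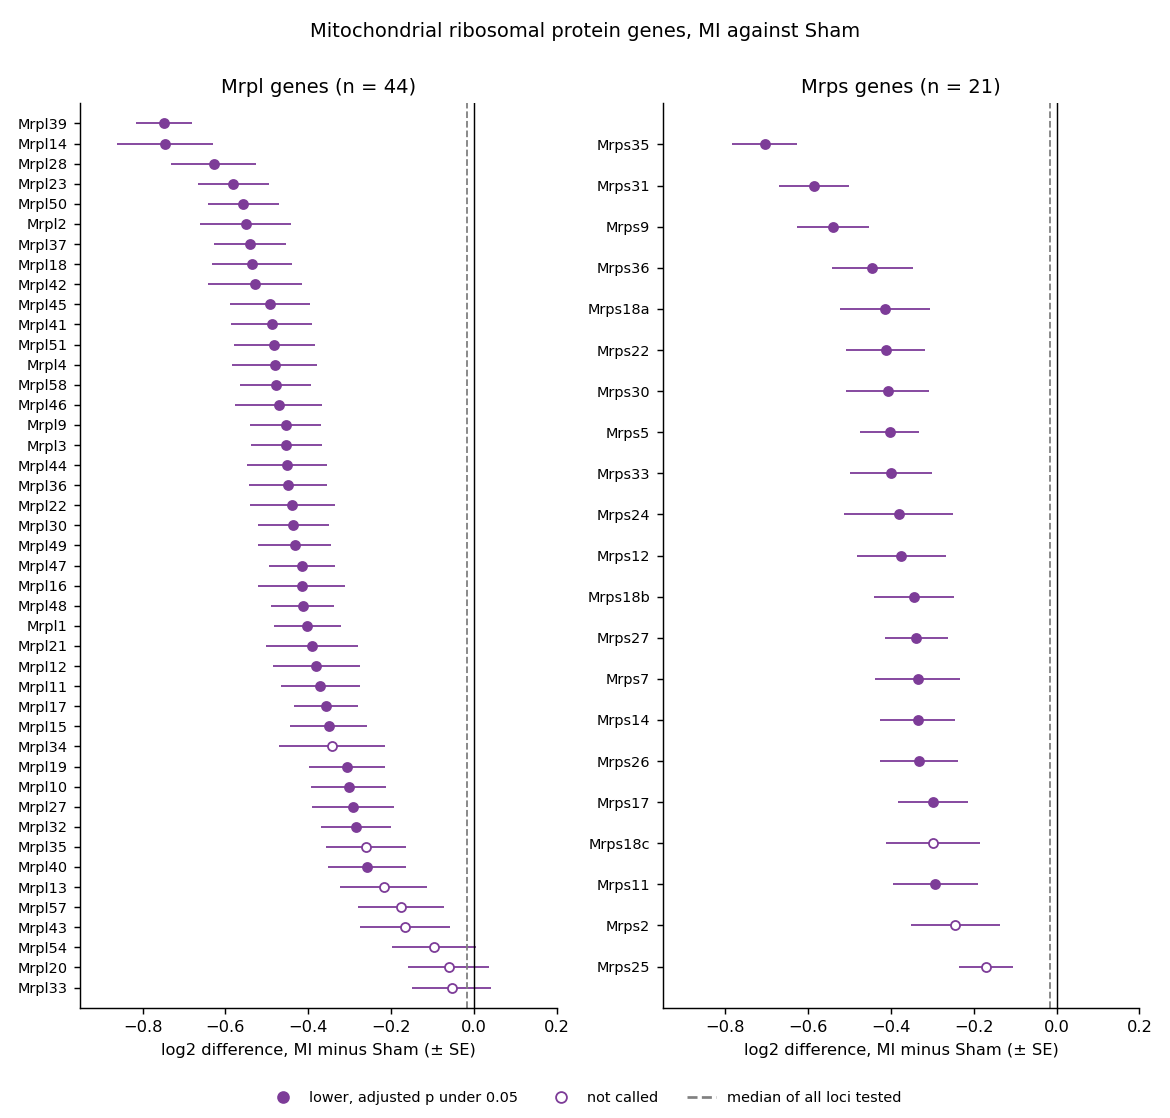
Log2 difference, MI minus Sham, of each of the 44 Mrpl and 21 Mrps genes with its standard error (horizontal axis) and the genes in order of the difference (vertical axis). Filled points were called lower (54), open points were not called (11) and the dashed line is the median of all loci tested (-0.02); all 65 points lie left of 0, whereas scaling to the library total would leave 48 there.

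The largest fall among the large-subunit genes was that of Mrpl39 (chr16:84717785-84746234 in mm9, minus strand), which encodes mL39, a protein specific to mitochondria. Mrpl39 had 4805, 5729, 5375 and 5203 normalised reads in MI replicates 1 to 4, against 8655, 8948, 9048 and 8760.0 in Sham replicates 1 to 4. The groups lay far apart, and the Sham libraries differed little among themselves. Its log2 difference was -0.75 ± 0.068 (SE), with an adjusted p of 2.68e-05. Mrpl14 (chr17:45822944-45836337, plus strand) encodes uL14m, of a family found in all ribosomes. It had 2697, 3418, 2909 and 3438 normalised reads in MI replicates 1 to 4, against 5450.3, 4356, 6078 and 5056 in Sham replicates 1 to 4. Here too no MI library reached a Sham library, and the Sham libraries were more spread. The log2 difference was -0.75 ± 0.12, with an adjusted p of 0.000581. The promoters of these genes are shown because they lead the order; each line runs 5′ to 3′ from 250 bases before to 50 bases after the start that RefSeq gives in GRCm38.p6, and capitals mark a match to a motif searched for.
Mrpl39, chr16:84735195-84735494, minus strand, capitals a match to the NRF1 motif: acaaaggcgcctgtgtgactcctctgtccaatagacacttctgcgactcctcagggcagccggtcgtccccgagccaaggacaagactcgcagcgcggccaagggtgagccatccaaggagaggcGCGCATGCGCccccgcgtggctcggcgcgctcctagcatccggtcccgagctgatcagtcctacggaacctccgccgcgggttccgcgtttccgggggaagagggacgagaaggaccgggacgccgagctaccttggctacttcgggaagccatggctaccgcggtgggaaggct
Mrpl14, chr17:45686099-45686398, plus strand, no match: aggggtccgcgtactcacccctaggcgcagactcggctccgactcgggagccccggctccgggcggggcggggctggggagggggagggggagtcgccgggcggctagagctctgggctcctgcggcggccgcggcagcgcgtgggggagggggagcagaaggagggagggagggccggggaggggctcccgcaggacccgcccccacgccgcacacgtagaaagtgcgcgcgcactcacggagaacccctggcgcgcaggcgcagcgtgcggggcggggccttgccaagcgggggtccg

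Next among the Mrpl genes came Mrpl28, Mrpl23, Mrpl50 and Mrpl2. Mrpl28 (chr17:26260477-26263558), the gene for bL28m, had 6726, 8513, 7475 and 8188 normalised reads in MI replicates 1 to 4, against 12429.8, 10420.1, 13763 and 11226 in Sham replicates 1 to 4. MI replicate 1 was lowest and Sham replicate 3 highest, with a clear gap between the groups. The log2 difference of Mrpl28 was -0.63 ± 0.10, with an adjusted p of 0.000795. Mrpl23 (chr7:149719022-149726647) encodes uL23m, whose bacterial relative sits at the exit of the tunnel for the growing chain. It averaged 3199 ± 237 in MI hearts and 4790.4 ± 431 in Sham hearts, with a log2 difference of -0.58. A pseudogene is named after it, so some of its reads may belong elsewhere. Mrpl50 (chr4:49525469-49533955), the gene for the mitochondria-specific mL50, averaged 5564 ± 357 in MI hearts and 8204 ± 862 in Sham hearts, with a log2 difference of -0.56. Mrpl2 (chr17:46783197-46787081) encodes uL2m, whose bacterial relative lies beside the site where peptide bonds form. It averaged 6155 ± 607 in MI hearts and 9053 ± 1310.0 in Sham hearts, with a log2 difference of -0.55 and an adjusted p of 0.0026. In each of these 4 genes the groups did not overlap.

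Among the Mrps genes the largest falls were those of Mrps35, Mrps31 and Mrps9. Mrps35 (chr6:146991292-147023680, plus strand), the gene for the mitochondria-specific mS35, had 4267, 4915, 4278 and 4744 normalised reads in MI replicates 1 to 4, against 7327, 6765, 8143 and 7432 in Sham replicates 1 to 4. The groups were well apart. Its log2 difference was -0.70 ± 0.079, with an adjusted p of 8.78e-05. Of the exon bases of the Mrps35 locus 81.8% are shared with another locus, and the part of this in its values was not tested. Mrps31 (chr8:23520953-23540779), the gene for mS31, had 3112, 3668, 3396 and 3595 in MI replicates 1 to 4, against 5173, 4599, 5717 and 5199.9 in Sham replicates 1 to 4. No exon base of Mrps31 is shared, and the groups were again apart. The log2 difference was -0.59 ± 0.084, with an adjusted p of 0.000387. Mrps9 (chr1:42908128-42963220) encodes uS9m, whose bacterial relative reaches toward the transfer RNA in the peptidyl site. It averaged 6119 ± 457 in MI hearts and 8910.0 ± 883 in Sham hearts, with a log2 difference of -0.54.

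Mrps36 and Mrps22 followed, with Mrps18a, described below with its paralogues, between them. Mrps36 (chr13:101504382-101514590) carries a ribosomal symbol, but its protein is now known as a subunit of the alpha-ketoglutarate dehydrogenase complex of the citric acid cycle. It averaged 4529 ± 343 normalised reads in MI hearts and 6189 ± 810 in Sham hearts, with a log2 difference of -0.44 and an adjusted p of 0.0046; GENCODE names pseudogenes after it. Mrps22 (chr9:98489158-98502078), the gene for mS22, averaged 1729.8 ± 133 in MI hearts and 2307 ± 256 in Sham hearts, with a log2 difference of -0.41 and an adjusted p of 0.006. The other genes whose human counterparts are known for cardiomyopathy, named for that role and outside the rule for naming, were also called lower. Their log2 differences were -0.45 for Mrpl3, -0.45 for Mrpl44 and -0.33 for Mrps14, of whose exon bases 50.7% are shared with another locus.

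**Figure D2:**
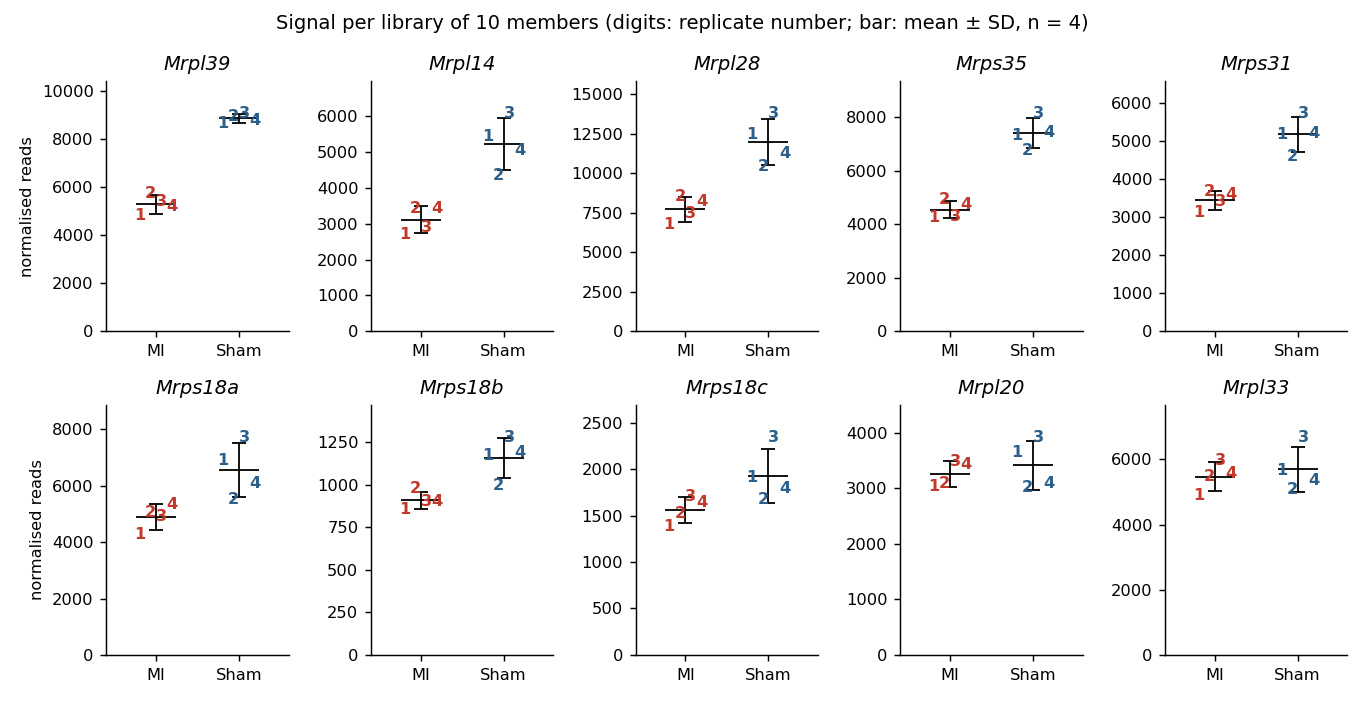
Normalised reads (vertical axis, from 0) of 10 genes in each library, MI left and Sham right, with each library drawn as its replicate number and the mean ± SD (n = 4) as black bars. Groups are apart in Mrpl39, Mrpl14, Mrpl28, Mrps35, Mrps31, Mrps18a and Mrps18b, and overlap in Mrps18c, Mrpl20 and Mrpl33; the differences of Mrpl20, Mrpl33 and Mrps18c were above 0 with scaling to the library total.

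Mrps18a, Mrps18b and Mrps18c are paralogues of 1 bacterial gene family that sit in different places of the mitochondrial ribosome. Mrps18a encodes mL66, a protein of the large subunit, Mrps18b encodes mS40 and Mrps18c encodes bS18m, both proteins of the small subunit. Mrps18a (chr17:46247953-46265857, plus strand) had 4283, 5059.6, 4898 and 5340.4 normalised reads in MI replicates 1 to 4, against 6891, 5523, 7720.3 and 6086 in Sham replicates 1 to 4. Mrps18b (chr17:36047330-36053314, minus strand) had 853, 976, 903 and 903 in MI replicates 1 to 4, against 1171, 994, 1278 and 1187 in Sham replicates 1 to 4. Mrps18c (chr5:101227778-101233488, plus strand) had 1384, 1519, 1706 and 1637 in MI replicates 1 to 4, against 1911, 1673, 2342 and 1788 in Sham replicates 1 to 4. The groups were apart for Mrps18a and Mrps18b, by little, and overlapped for Mrps18c, where Sham replicate 2 fell below MI replicate 3. Mrps18a and Mrps18b were called lower, with log2 differences of -0.41 ± 0.11 (adjusted p = 0.0115) and -0.34 ± 0.097 (adjusted p = 0.0156). Mrps18c was not called, with a log2 difference of -0.30 ± 0.11 and an adjusted p of 0.0575. Differences among the paralogues were not tested. Of the exon bases, 60.0% in Mrps18b and 11.3% in Mrps18c are shared with another locus, and none in Mrps18a. Per kilobase of exon Mrps18a stood at 6626 normalised reads over the 8 libraries, Mrps18c at 2165 and Mrps18b at 981. Their promoters, drawn as above, are shown to compare the paralogues, and each holds the ETS or GABP motif.
Mrps18a, chr17:46110754-46111053, plus strand, capitals the ETS or GABP motif and then the YY1 motif: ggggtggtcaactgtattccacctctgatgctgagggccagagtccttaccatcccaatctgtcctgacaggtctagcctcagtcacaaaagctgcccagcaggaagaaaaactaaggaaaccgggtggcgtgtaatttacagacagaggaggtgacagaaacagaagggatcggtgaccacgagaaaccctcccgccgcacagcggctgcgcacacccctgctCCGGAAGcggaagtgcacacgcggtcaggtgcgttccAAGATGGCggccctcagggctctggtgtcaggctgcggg
Mrps18b, chr17:35916391-35916690, minus strand, capitals the ETS or GABP motif read on the other strand: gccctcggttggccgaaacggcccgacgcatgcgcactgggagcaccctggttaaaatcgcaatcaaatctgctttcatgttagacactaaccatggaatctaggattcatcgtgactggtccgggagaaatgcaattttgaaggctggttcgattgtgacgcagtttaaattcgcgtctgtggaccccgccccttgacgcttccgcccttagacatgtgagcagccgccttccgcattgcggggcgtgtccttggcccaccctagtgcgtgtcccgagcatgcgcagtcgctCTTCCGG
Mrps18c, chr5:100798509-100798808, plus strand, capitals the E-box and then the ETS or GABP motif read on the other strand: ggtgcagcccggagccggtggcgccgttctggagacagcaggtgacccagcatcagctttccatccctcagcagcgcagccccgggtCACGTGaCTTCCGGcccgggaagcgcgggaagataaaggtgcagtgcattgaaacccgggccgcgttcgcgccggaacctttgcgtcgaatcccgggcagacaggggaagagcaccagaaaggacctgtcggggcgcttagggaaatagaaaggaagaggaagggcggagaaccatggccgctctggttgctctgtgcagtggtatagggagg

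The 11 genes not called were Mrpl13, Mrpl20, Mrpl33, Mrpl34, Mrpl35, Mrpl43, Mrpl54, Mrpl57, Mrps2, Mrps18c and Mrps25. Closest to 0 was Mrpl33 (chr5:31916131-31966757, plus strand), the gene for bL33m. It had 4892, 5462, 5953 and 5558 normalised reads in MI replicates 1 to 4, against 5649.7, 5083, 6674 and 5358 in Sham replicates 1 to 4. Mrpl20 (chr4:155177727-155182938), the gene for bL20m, whose bacterial relative acts early in assembly of the large subunit, had 3032, 3089, 3481 and 3428 in MI replicates 1 to 4, against 3639.5, 3017, 3918 and 3084 in Sham replicates 1 to 4. In both genes the groups lay across each other, and Sham replicate 3 was the highest library. The log2 differences were -0.05 ± 0.095 for Mrpl33 (adjusted p = 0.686) and -0.06 ± 0.098 for Mrpl20 (adjusted p = 0.65), and both turned above 0 without Sham replicate 3, at 0.025 and 0.0073. Mrpl54 (chr10:80725632-80730492), the gene for the mitochondria-specific mL54, averaged 2533 ± 214 in MI hearts and 2716 ± 320 in Sham hearts, with a log2 difference of -0.10. With scaling to the library total these 3 genes were called higher in MI hearts, at 0.25 for Mrpl33, 0.25 for Mrpl20 and 0.21 for Mrpl54.
Mrpl33, chr5:31613701-31614000, plus strand, capitals the ETS or GABP motif, shown as the gene of least difference: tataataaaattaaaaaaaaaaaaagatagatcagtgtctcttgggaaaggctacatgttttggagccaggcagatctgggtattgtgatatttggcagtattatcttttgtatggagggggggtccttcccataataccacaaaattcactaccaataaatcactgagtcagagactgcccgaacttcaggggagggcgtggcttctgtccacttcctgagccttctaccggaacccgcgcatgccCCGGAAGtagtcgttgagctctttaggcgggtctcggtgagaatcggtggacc

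Among the Mrps genes the differences nearest 0 were those of Mrps25, Mrps2 and Mrps11. Mrps25 (chr6:92117857-92134017), the gene for mS25, had 5996, 6368, 6378 and 6402 normalised reads in MI replicates 1 to 4, against 7136, 6545, 7563 and 7086 in Sham replicates 1 to 4. The groups did not overlap, and yet the gene missed the threshold, with a log2 difference of -0.17 ± 0.065 and an adjusted p of 0.0586. Mrps2 (chr2:28323481-28329933), the gene for uS2m, averaged 4134 ± 339 in MI hearts and 4924 ± 696 in Sham hearts, with overlapping groups and an adjusted p of 0.0918. Mrps11 (chr7:85928196-85937874), the gene for uS11m, averaged 1287 ± 103 in MI hearts and 1580.0 ± 181 in Sham hearts. It was called lower, at -0.29 ± 0.10 with an adjusted p of 0.0402, although its groups overlap, and lost the call without any library other than MI replicate 4 and Sham replicate 2, with adjusted p between 0.0559 and 0.107. Without Sham replicate 2, 6 of the 11 genes not called were called lower, namely Mrps2, Mrps18c, Mrps25, Mrpl34, Mrpl35 and Mrpl43, with adjusted p between 0.0104 and 0.0377.

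By symbol, 36 of 44 Mrpl genes were called lower, with a median log2 difference of -0.42, and 18 of 21 Mrps genes, with a median of -0.37. By the subunit in which the protein sits, 38 of 46 large-subunit genes were lower (median -0.42) and 15 of 18 small-subunit genes (median -0.34), since Mrps18a and Mrps30 encode large-subunit proteins and Mrps36 was put in neither. By the unified name, genes marked u or b were lower in 31 of 38 cases (median -0.38) and genes marked m in 22 of 26 (median -0.42). Mrps18a and Mrps18b count among those marked m, although they are paralogues of Mrps18c, which is marked b. These classes lay close together, and differences between them were not tested. Exon bases were shared with another locus in 27 of the 65 genes, and in 6 of these the shared part was 50.7% to 86.3% of the exon bases. Among the 38 genes with no shared base, 35 were called lower and 3 were not, with a median of -0.44. Of the 11 genes not called, all but Mrpl33, Mrpl57 and Mrps2 share exon bases with another locus. The shared part ran between 3.6% for Mrpl34 and 75.7% for Mrpl35, with 41.0% for Mrpl13, 31.1% for Mrpl54 and 22.8% for Mrps25. The part of this in the calls was not tested.

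Levels differed far more between the genes than between the groups. Per kilobase of exon, the mean over the 8 libraries ran between 481 normalised reads for Mrpl13 and 11423 for Mrpl18, a 23.8-fold range with a median of 1680.2. The highest Mrpl genes were Mrpl18 at 11423, Mrpl28 at 9501 and Mrpl2 at 7514, and the highest Mrps genes were Mrps18a at 6626, Mrps24 at 4406 and Mrps12 at 4384. Mrps24 encodes uS3m and Mrps12 encodes uS12m, whose bacterial relative lies at the decoding site. The lowest were Mrpl13 at 481 and Mrpl35 at 609 among Mrpl genes, and Mrps22 at 508 and Mrps5 at 524 among Mrps genes. Exon lengths of the loci ran between 582 bases for Mrpl23 and 11430 for Mrpl13, so that a low level per kilobase can come with a long annotated locus. Mrpl18 (chr17:13104221-13108957), the gene for uL18m, had 8047, 9280.1, 9118 and 9227 normalised reads in MI replicates 1 to 4, against 13024, 11512, 15469 and 11961 in Sham replicates 1 to 4. Its groups were apart, and its log2 difference was -0.54 ± 0.096, with an adjusted p of 0.00144. Of the genes at the other end, Mrps5 was called lower at -0.40, and Mrpl13 and Mrpl35 were not called, at -0.22 and -0.26, both above 0 with scaling to the library total. Mrps12 was called at -0.37, but not without MI replicate 1 (adjusted p = 0.0507). Mrps24, whose groups overlap, was called at -0.38 (adjusted p = 0.0391) and lost the call without any 1 of MI replicates 1 and 3 and Sham replicates 1, 3 and 4, with adjusted p between 0.0523 and 0.109.

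Across the 65 genes, Spearman's rho between the level per kilobase and the log2 difference was -0.40, and between exon length and the log2 difference 0.06; the points share their libraries and sequencing depth, and the values are descriptions. Split by level, 21 of the 22 highest genes were lower (median -0.44), 17 of the middle 21 (median -0.43) and 16 of the lowest 22 (median -0.34).

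**Figure D3:**
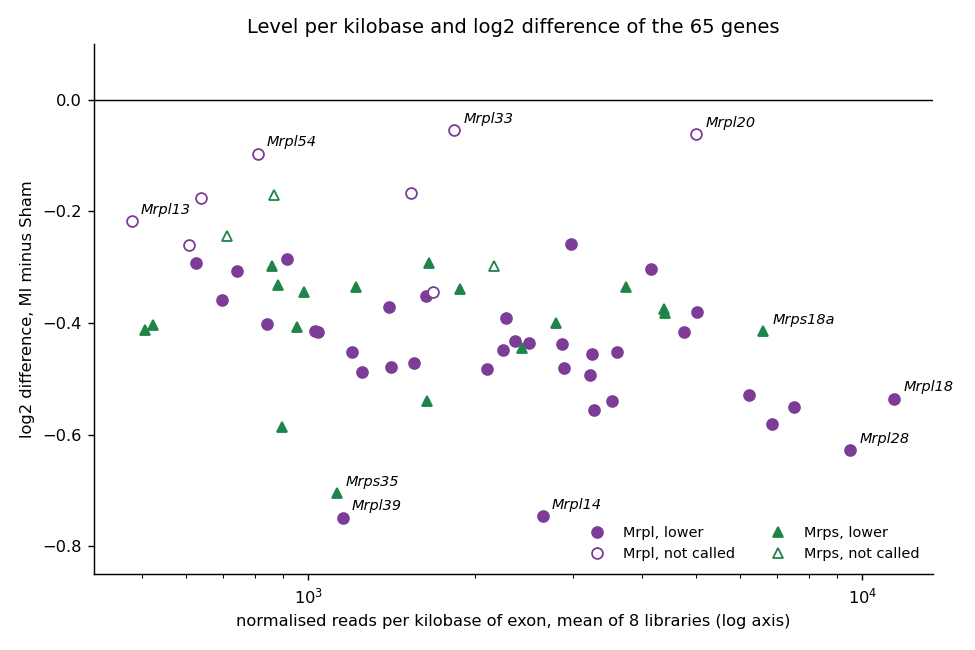
Mean normalised reads per kilobase of exon over 8 libraries (horizontal, log axis) and log2 difference, MI minus Sham (vertical axis), of the 65 genes; circles are Mrpl and triangles Mrps genes, filled where called lower. Mrpl18 is highest at 11423 and Mrpl13 lowest at 481, and the 3 genes nearest 0 are Mrpl33, Mrpl20 and Mrpl54, which lay above 0 with scaling to the library total.

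The libraries kept a similar order from gene to gene. Summed over the genes, the signal was 279081, 327922, 309751 and 327300 normalised reads in MI replicates 1 to 4, against 429633, 369377, 479538 and 400658 in Sham replicates 1 to 4. The groups did not overlap, and the MI mean of 311013 ± 22894 was 74.1% of the Sham mean of 419801 ± 46812. Sham replicate 3 was the highest Sham library in 65 of 65 genes and Sham replicate 2 the lowest in 64. MI replicate 1 was the lowest MI library in 63 of 65 genes, while the highest was MI replicate 4 in 30, MI replicate 2 in 26 and MI replicate 3 in 9. Over all 19186 loci tested, Sham replicate 3 was highest among Sham libraries in 6562, Sham replicate 2 lowest in 5038 and MI replicate 1 lowest among MI libraries in 7241. The coefficient of variation within a group had a median of 7.79% in MI hearts and 11.9% in Sham hearts. As a share of all reads the 65 genes took 0.221% to 0.227% in MI libraries and 0.228% to 0.263% in Sham libraries.

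**Figure D4:**
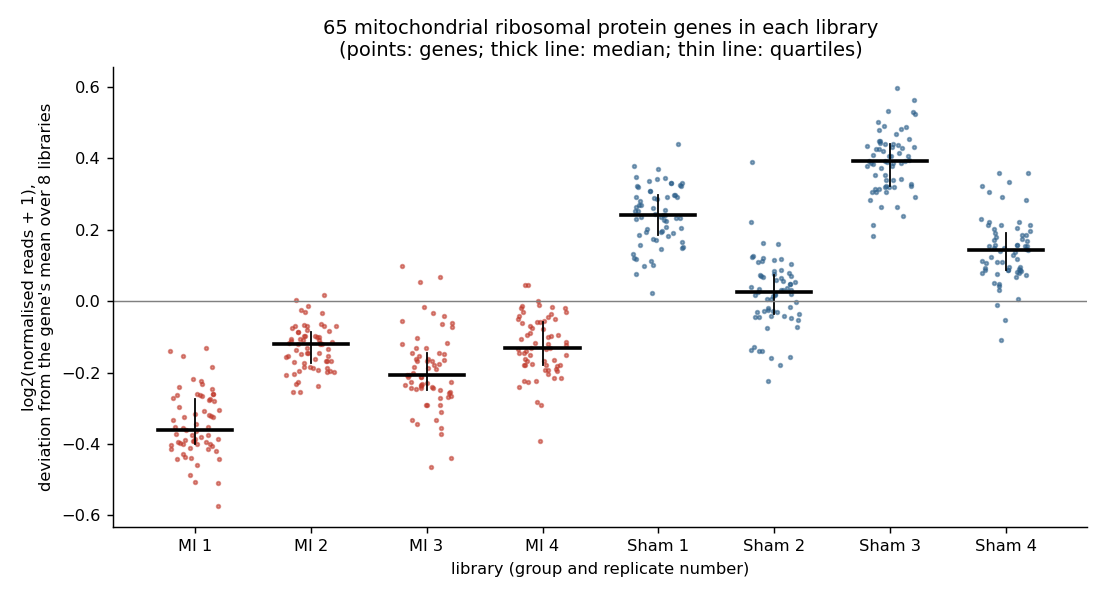
Deviation of log2(normalised reads + 1) from each gene's mean over 8 libraries (vertical axis) in MI replicates 1 to 4 and Sham replicates 1 to 4 (horizontal axis); points are the 65 genes, thick lines medians and thin lines quartiles. Medians lie at -0.36 in MI replicate 1 and at 0.39 in Sham replicate 3, and the lowest Sham median, 0.03 in replicate 2, is above the highest MI median, -0.12 in replicate 2.

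Fibroblast, macrophage and lymphocyte markers were mostly called higher in MI hearts and cardiomyocyte markers in part lower, while the summed signal of lymphocyte, smooth muscle and pericyte, and endothelial markers overlapped between the groups. Summed over 8 cardiomyocyte markers, the signal was 3939059 to 4735661 normalised reads in MI libraries and 5383486 to 5869173 in Sham libraries. Of the 8, 4 were called lower and 4 were not called, with a median log2 difference of -0.47. All 8 lay below 0, with an upper quartile of -0.13 and the highest at -0.00086. Of 12 cardiomyocyte markers listed 8 had a locus of their own, as had 8 of 10 macrophage and 7 of 8 endothelial markers. Myl2, the ventricular myosin light chain, had a log2 difference of -0.68 ± 0.11 and Ckm, muscle creatine kinase, of -0.68 ± 0.13. Fibroblast markers were called higher in 8 of 8 cases and summed to 589370 to 913855 in MI libraries and 107998 to 161994 in Sham libraries; Col1a1, a collagen chain, differed by 3.22. Macrophage markers were higher in 7 of 8 cases (sum 38134 to 47320 in MI libraries and 23215 to 31935 in Sham libraries), with Adgre1 at 1.06 and Fcgr1 at 1.23. The eighth, Cd163, stood at -0.51 (adjusted p = 0.0536) and was called lower without MI replicate 2 or 3 (adjusted p = 0.0474 and 0.0199). Lymphocyte markers were higher in 6 of 7, at low levels: they summed to 312 to 852 in MI libraries and 223 to 378 in Sham libraries, with Cd3d at 2.37 and Cd3e at 1.39, where Cd3e lost its call without any 1 of MI replicates 1, 3 and 4 and Sham replicates 2 and 3 (adjusted p between 0.0854 and 0.124). Smooth muscle and pericyte markers were higher in 4 of 8 (sum 138541 to 171552 in MI libraries and 135220 to 155981 in Sham libraries), with Tagln at 0.89 and Cnn1 at 1.25. Below 0 and not called were Kcnj8 at -0.32, Myh11 at -0.31 and Rgs5 at -0.12; Kcnj8 was called lower without MI replicate 4 (adjusted p = 0.0194) and Myh11 without Sham replicate 3 (adjusted p = 0.0182), and Myh11 and Rgs5 were above 0 with scaling to the library total. Cd163 and these 3 were chosen after their values were seen. By limma, endothelial markers were called in 0 of 7, with 1 at an unadjusted p under 0.05 and 0 by edgeR, DESeq2 and limma-voom (sum 134787 to 157617 in MI libraries and 120794 to 163492 in Sham libraries), with Pecam1 at 0.19, which was called higher without Sham replicate 1 (adjusted p = 0.0174). Under the library total 5 of the 7 were called, under the total outside the mitochondrial genome 4, and without Sham replicate 1 there were 3. TMM scaling, upper-quartile scaling and leaving out MI replicate 2 each gave 1. No list had a marker at 0 in every library. MI replicate 1, lowest in 63 of the 65 genes, also had the lowest cardiomyocyte sum and the lowest share of mitochondrial-genome reads. Sham replicate 3, the highest Sham library in 65 of 65 genes, had the highest of both. Sham replicate 2, the lowest Sham library in 64 genes, had the lowest Sham share of mitochondrial-genome reads (29.2%). Its cardiomyocyte sum of 5425878 was yet above the 5383486 of Sham replicate 1. The 65 genes summed to 369377 in Sham replicate 2 and to 429633 in Sham replicate 1. The part of cell makeup in the result was not tested.

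A further 5 genes encode mitochondrial ribosomal proteins under other names, and 5 of 5 were called lower with a median of -0.41. Ptcd3, the gene for mS39, which helps load messenger RNA, had 13581, 16087, 14641 and 14464 normalised reads in MI replicates 1 to 4, against 21292, 21025, 23252 and 21834 in Sham replicates 1 to 4. The groups were far apart. Its log2 difference was -0.57 ± 0.070, with an adjusted p of 0.000145. Dap3, which encodes the GTP-binding mS29, differed by -0.52 ± 0.078, and the others were Aurkaip1, Chchd1 and Gadd45gip1.

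Genes that build and serve the mitochondrial ribosome were mostly lower as well. Of 23 assembly factors 19 were called lower and none higher, with a median log2 difference of -0.40. Mtg2, a GTPase of large-subunit assembly, averaged 2191 ± 203 in MI hearts and 3441 ± 336 in Sham hearts (log2 difference -0.65), and Mettl15, which methylates the small-subunit ribosomal RNA, averaged 773 ± 36.8 in MI hearts and 1172 ± 64.9 in Sham hearts (log2 difference -0.60). Of 14 translation factors 12 were lower and none higher (median -0.39). Lrpprc, which binds and stabilises mitochondrial messenger RNAs, averaged 24487 ± 2229.8 in MI hearts and 38252 ± 1605 in Sham hearts, with a log2 difference of -0.65, and Mtrf1, a release factor, differed by -0.55. Of 17 genes of mitochondrial tRNA charging 14 were lower and none higher (median -0.44), with Gatb, of the complex that makes glutamine-charged tRNA, at -0.67 and Cars2, the cysteine enzyme, at -0.61. Of 7 genes of mitochondrial transcription 5 were lower and none higher (median -0.33), with Mterf2 at -0.57 and Tfb2m, a factor of promoter opening, at -0.45.

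Of 10 regulators known to drive genes of mitochondrial biogenesis, 3 were called lower and 3 higher, against 20.1% and 20.8% of all loci. Their median of -0.07, against -0.02 over all loci, was above 0 under both total scalings. Esrrg, the gene of an estrogen-related receptor, averaged 5800.2 ± 846 normalised reads in MI hearts and 8432 ± 314 in Sham hearts, with a log2 difference of -0.55. Its relative Esrrb averaged 4491 ± 334 in MI hearts and 6285 ± 423 in Sham hearts, with a log2 difference of -0.49, and the third called lower was Gabpa at -0.26, which lost its call under both total scalings. Myc, a growth regulator, had 780, 848, 996 and 997 in MI replicates 1 to 4, against 346, 410, 439 and 334 in Sham replicates 1 to 4. Its groups were far apart, with a log2 difference of 1.24 ± 0.13 and an adjusted p of 5.13e-05. Pprc1, a relative of the coactivator PGC-1, differed by 0.27 and Gabpb1 by 0.21. Both of these rises were weakly held: Pprc1 lost its call without any 1 of MI replicates 2, 3 and 4 and Sham replicates 1, 2 and 4 (adjusted p between 0.0648 and 0.122), and Gabpb1 without any 1 of MI replicates 1 and 3 and Sham replicates 1 and 4 (adjusted p between 0.0610 and 0.0716). Without MI replicate 3, Sham replicate 1 or Sham replicate 4, 1 of the 10 was therefore higher. The genes not called, named after their values were seen, were Ppargc1a at -0.11, Ppargc1b at -0.42, Nrf1 at -0.03 and Yy1 at -0.01. Ppargc1a, Nrf1 and Yy1 lay above 0 under both total scalings, and Ppargc1b was called lower without Sham replicate 3 (adjusted p = 0.0210).

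Beside these, 65 of 72 nuclear subunits of the respiratory chain and ATP synthase were called lower and none higher, with a median log2 difference of -0.54; 1 was higher without MI replicate 2 or without Sham replicate 1. Of 71 cytosolic ribosomal protein genes, 2 were lower and 3 higher, with a median of 0.00 as deposited and of 0.19 and 0.30 under the scalings to the total outside the mitochondrial genome and to the library total. The 5 called, named after their values were seen, were Rpl3l at -1.47 and Rps2 at -0.35, and Rpl3 at 0.79, Rpl39 at 0.41 and Rps12 at 0.33. Rpl3l is the paralogue of Rpl3 that striated muscle uses. Leaving out 1 library gave 1 to 4 higher and 1 to 3 lower, with 1 higher without any 1 of MI replicates 3 and 4 and Sham replicates 2 and 4, and 1 lower without MI replicate 1 or 3. Lost among these were Rpl39, without any 1 of MI replicates 3 and 4 and Sham replicates 2 and 4 (adjusted p between 0.0523 and 0.0698), Rps12, without any of these or MI replicate 1 (adjusted p between 0.0550 and 0.0776), and Rps2, without MI replicate 1 or 3 (adjusted p = 0.0553 and 0.0513) and under both total scalings. Cytosolic ribosomal protein genes have many near-identical copies, so the values of single genes are uncertain. A difference between the lists was not tested.

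**Figure D5:**
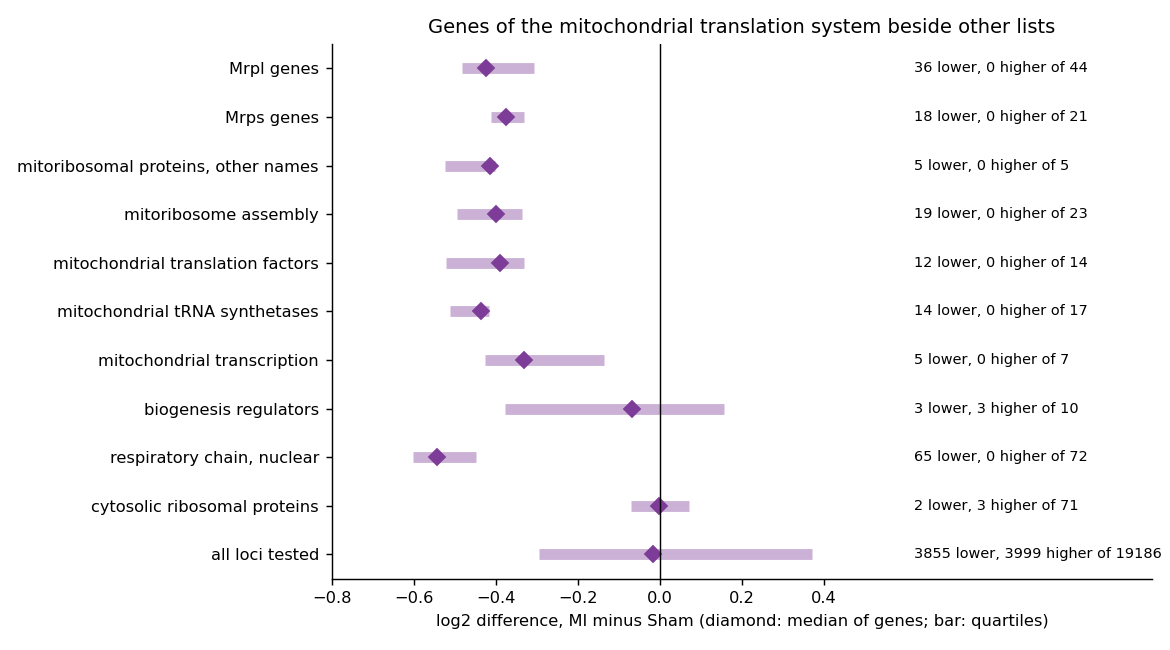
Median (diamond) and quartiles (bar) of the log2 difference, MI minus Sham (horizontal axis), of the genes of each list (vertical axis), with the numbers called lower and higher. The Mrpl and Mrps genes lie at -0.42 and -0.37, the nuclear respiratory chain genes at -0.54 and all loci at -0.02; the medians of biogenesis regulators, cytosolic ribosomal proteins and all loci were above 0 under both total scalings.

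The RefSeq table held a promoter for 59 of the 65 genes, and 5 motifs were searched on both strands of its windows of 300 bases. A match says only that the letters occur. The YY1 motif AAGATGGC was in 12 of the 59 (20.3%), against 3.57% of 17492 protein-coding genes and 3.19% of all 27025 genes in the table. In Mrpl35, Mrpl37, Mrpl42, Mrpl49, Mrps7, Mrps18a, Mrps24 and Mrps27 the match lay 12 to 37 bases past the gene start, on the forward strand. There it holds the letters ATG, and whether it is a start of translation was not tested. In Mrpl32, Mrpl36, Mrps11 and Mrps12 the match lay before the gene start, on the other strand. The ETS or GABP motif CCGGAAG was in 21 (35.6%), against 12.9% of protein-coding and 9.93% of all genes. The palindromic NRF1 motif was in 3 (5.08%), namely Mrpl9, Mrpl32 and Mrpl39, against 1.47% and 1.07%. The E-box CACGTG was in 5 (8.47%), against 8.91% and 8.09%, and the ERR motif TCAAGGTCA in none, against 0.377% and 0.466%. In all, 34 of the 59 held at least 1 motif, and no matches of different motifs overlapped. Of the 50 genes with a promoter that were called lower, 16 held the ETS or GABP motif and 11 the YY1 motif, and of the 9 not called, 5 and 1 did; these shares were not tested.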

How the data were processed

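Poly(A) RNA of 8 mouse hearts was sequenced on an Illumina HiSeq2000, per the labels' protocols. Build mm9 and the programs HTSeq 0.5.4p2, DESeq, TopHat2 2.0.5 and Cufflinks 2.0.2 are named in the submitters' processing notes; for their settings, for strand and for reads with several positions the answer is not given in the sources used here. The deposited signal is 1 normalised value per locus and sample. All deposited values were whole multiples, within 0.000001, of 1 step per sample (100% of values), so reads could be recovered. Molecular identifiers are not described, so floors (3 reads where a locus counts 0) cover counting error only. Errors beside a mean are the spread over the 4 libraries of a group.

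Loci carry no gene symbols. A locus was named where its exon and intron lengths equalled those of a GENCODE M21 gene on the same chromosome and strand, with at least 1 intron matched and the offset of the start within 200000 bases of that of its neighbours; 20281 loci got a name, and 954 hold more than 1 gene. Coordinates of loci are mm9, from the deposited annotation and counted from 1. Promoters are RefSeq's, in GRCm38.p6, and no coordinate was converted.

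MI was compared with Sham in R 4.3.3 by limma 3.58.1 (limma-trend) on log2(value + 1) for the 19186 loci whose mean signal reached 10, 2-sided, with Benjamini-Hochberg adjustment over all of them and a threshold of 0.05. Adjusted p-values in the text are from this fit, values after ± beside a log2 difference are moderated standard errors and those beside a mean are SD (n = 4). The pseudocount understates changes of low loci. Lists are described by counts and medians, with no test of a list. The cytosolic list took symbols Rpl or Rps followed by a number, so the ribosomal proteins Rplp0 to Rplp2 and Rpsa are missing from it. Paralogues with such a symbol, as Rpl3l, were kept. Rps19bp1, which is no ribosomal protein, and the Rps6k kinases were left out of the cytosolic list. The method was run on simulated data in which few loci changed and noise was independent between loci. The real data differ in both, so that run is no check on the counts given here. Count tests on the recovered reads were DESeq2 1.42.0, limma-voom and the quasi-likelihood test of edgeR 4.0.16. In all, 20 alternatives were tried, covering pseudocount, filter, scaling, tool, replicate block and each library left out. Python 3.11.15, numpy 2.4.6, pandas 2.3.3, scipy 1.17.1 and matplotlib 3.10.9 were used for the rest.

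The genes and the lists were chosen with earlier results of these data known. Named in the text were, per symbol class, the 6 called genes of largest change in each direction, the 3 nearest 0, the 3 highest and 2 lowest per kilobase, the Mrps18 paralogues, and per list the 2 called genes of largest change in each direction, or where none was called the gene of smallest p; exceptions are marked.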

Additional observations from a re-analysis of the deposited data

Results flagged for a closer look

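In 5 of 104 groups of 4 libraries examined for a single library far from the others, where chance alone would give 5.2, 1 library stood off by Dixon's criterion for the gap to its nearest neighbour. Mrpl18 was at 8047 normalised reads in MI replicate 1, against 9118 to 9280.1 in the other MI libraries. Mrps36 was at 4015 in MI replicate 1, against 4689 to 4713 in the other MI libraries. Mrps25 was at 5996 in MI replicate 1, against 6368 to 6402 in the other MI libraries. Tfb2m was at 10226 in Sham replicate 3, against 9082 to 9249 in the other Sham libraries. Pecam1 was at 27875 in Sham replicate 1, against 22423 to 22705 in the other Sham libraries. The library that stands off in Mrpl18, Mrps36 and Mrps25 is the one that was lowest among MI libraries in 63 of the 65 genes.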

How the results depend on the processing

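The count of 54 genes lower in MI hearts stayed between 53 and 58, and none was higher, with pseudocounts of 5 and 0.5, no filter on low values, a mean of at least 100, TMM and upper-quartile scaling, edgeR, DESeq2 and limma-voom, while 12.9% to 25.1% of all loci were lower. With the replicate number as a replicate block the count was 54 with a median of -0.40; the numbers share no stated origin, and the deviations of same-numbered libraries had correlations of 0.146, 0.272, 0.160 and, for replicate 4, -0.000918. Leaving out 1 library gave 45 to 60 lower and medians of -0.45 to -0.34.

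Scaled to the library total, 15 of the 65 genes were lower and 3 higher (median -0.10), with 12 Mrpl genes lower and 3 higher (median -0.12) and 3 Mrps genes lower (median -0.067). Scaled to the total outside the mitochondrial genome, 34 were lower (median -0.21), with medians of -0.23 for Mrpl and -0.18 for Mrps genes, of which 7 were lower. Such scaling moves every locus of a library by the same factor. Of the ribosomal protein genes given with values, those that turned above 0 were Mrpl33 (0.25 with the library total, 0.14 with the total outside the mitochondrial genome, 0.025 without Sham replicate 3, range without 1 library -0.11 to 0.025), Mrpl20 (0.25, 0.13 and 0.0073, range -0.12 to 0.0073), Mrpl54 (0.21 and 0.095), Mrps25 (0.14 and 0.021), Mrpl43 (0.14 and 0.024) and, with the library total alone, Mrpl13 (0.089), Mrps2 (0.063), Mrpl35 (0.048), Mrps11 (0.015) and Mrps18c (0.010).

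Kept in all 20 alternatives were the calls of 15 genes, and 45 kept them in all but the total scalings. The 9 that lost the call elsewhere were Mrpl10, Mrpl19, Mrpl27, Mrpl32, Mrps7, Mrps12 and Mrps24, only when a library was left out, Mrps11, also with the replicate block, and Mrpl40, also with no filter, TMM and limma-voom. Lost only under a total scaling were Mrpl1, Mrpl4, Mrpl9, Mrpl11, Mrpl12, Mrpl15, Mrpl16, Mrpl17, Mrpl21, Mrpl22, Mrpl30, Mrpl36, Mrpl41, Mrpl44, Mrpl46, Mrpl47, Mrpl48, Mrpl49, Mrpl51, Mrps5, Mrps14, Mrps17, Mrps18a, Mrps18b, Mrps22, Mrps26, Mrps27, Mrps30, Mrps33 and Mrps36.

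For other lists under the library total, the lower and higher counts were 4 and 2 of 23 assembly factors (median -0.092), 5 and 1 translation factors (-0.082), 4 lower tRNA charging genes (-0.13), 2 and 1 transcription genes (-0.023), 2 lower ribosomal proteins of other names (-0.11), 0 and 5 biogenesis regulators (0.24), 1 and 58 cytosolic ribosomal proteins (0.30), 3 higher respiratory chain genes (-0.24) and 1497 and 8525 of all loci (0.29). Outside the mitochondrial genome they were 2 lower transcription genes (-0.14), 1 and 29 cytosolic ribosomal proteins (0.19), 1 higher respiratory chain gene (-0.35) and 2144 and 6366 of all loci (0.17), with medians of -0.21 for assembly, -0.20 for translation factors, -0.24 for tRNA charging, -0.22 for ribosomal proteins of other names and 0.12 for biogenesis regulators. Also 1 respiratory chain gene was higher with a mean of at least 100, TMM, upper-quartile scaling, edgeR, DESeq2 and limma-voom, and the median of all loci was 0.055 with no filter. Among other genes, those that turned above 0 with the library total and with the total outside the mitochondrial genome were Ppargc1a (0.20 and 0.081; 0.047 without MI replicate 2, range without 1 library -0.33 to 0.047), Nrf1 (0.28 and 0.17; 0.0019 with TMM, 0.0016 with edgeR, 0.0018 with limma-voom, range -0.064 to 0.0049), Yy1 (0.30 and 0.18; 0.021 with TMM, 0.0081 with the upper quartile, 0.019 with edgeR, 0.0028 with DESeq2, 0.022 with limma-voom, range -0.058 to 0.041) and Rgs5 (0.19 and 0.074), and, with the library total alone, Gabpa (0.051) and Myh11 (0.0015). Leaving out 1 library gave 1 to 3 higher biogenesis regulators (medians -0.15 to -0.0032), 1 to 4 higher and 1 to 3 lower cytosolic ribosomal proteins and 0 to 1 higher respiratory chain genes. The cause of these changes was not tested. The lowest mean of the 65 genes was 909 normalised reads in MI hearts and 1158 in Sham hearts (Mrps18b), and the part of depth in the calls was not tested. Cell makeup and the exon bases shared by 27 loci limit how single values are read.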
